A study of Arabidopsis thaliana with 6 samples.

Results

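The genes described here were those whose expression was lower in every hdt1 library than in every wild-type (WT) library of mature Arabidopsis stems. They were chosen on these same expression values. The lowest WT value had to be at least 2 FPKM (fragments per kilobase of gene, scaled to the mapped fragments of the library), and the highest hdt1 value had to be below 0.6 times that lowest WT value. These thresholds were met by 31 genes, or 0.203% of the 15235 genes whose lowest WT value was 2 FPKM or more. HDT1 itself and 7 other named genes were left out, of which 6 met the thresholds, and 25 of the 33690 features in the table remained. Because the contrast between hdt1 and WT chose them, their differences are given as a description and carry no test.

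HDT1 is an HD2-type histone deacetylase, a plant-specific family of nuclear proteins that remove acetyl groups from histones. Histone acetylation accompanies active transcription, and its removal usually accompanies lower transcription. In the stem, xylem and phloem form the vascular tissue beneath epidermis and cortex, and the genes below act in peptide signalling, transcription, iron storage, the cell cycle and other processes.

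RNA was sequenced from mature stems collected 35 days after flowering, from 3 hdt1 and 3 WT samples, and the plants received no treatment. The study worked with the T-DNA insertion lines GABI_355H03 and GABI_768H10 in AT3G44750 (HDT1), and neither the labels nor the methods say which of them was sequenced. The WT was Columbia. The labels number the samples of each genotype as replicates while the series' design text speaks of no replicates, and the methods say that stems were collected in triplicate. No source says whether the 3 collections came from plants grown separately, so any p-value below reflects no more than the variation among these libraries. The table names its libraries 1, 2 and 4 of each genotype.

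The FPKM values corresponded to 40505052 to 45230842 mapped fragments per library. HDT1 was at 4.97, 19.8 and 20.5 FPKM in hdt1 libraries 1, 2 and 4, against 53.3, 65.3 and 56.9 FPKM in the WT libraries, so that the targeted transcript was reduced and still present. Within each genotype, library 2 resembled library 4 closely (r = 0.995 by Pearson for log2(FPKM + 1) across genes, which are not independent replicates), whereas library 1 stood apart in both genotypes. The 2 libraries numbered 1 correlated at 0.977 with each other, and every other pair correlated at 0.853 to 0.906. All 7 xylem markers that were tested were higher in hdt1 at an unadjusted limma p under 0.05, and none passed after adjustment over 17906 genes, whereas with a term for library 1 in the fit 6 of the 7 passed (all but XCP2). The summed level of all 8 xylem markers was 174 to 180 FPKM in the hdt1 libraries and 24.8 to 59.6 FPKM in the WT libraries. The seed list held 8 genes, of storage proteins and the oleosin OLEO1. Their summed level was 0.426 to 9.19 FPKM in the hdt1 libraries, where SESA1 alone reached 8.96 FPKM. It was 0 in WT library 1 and up to 234 FPKM in the other WT libraries. In bulk RNA, fewer cells of a type and less RNA per cell cannot be told apart. The part of these markers in the values below was not tested. Values within library 1, where every seed marker was at 0 in WT, are given separately.

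The 25 genes had a median hdt1 mean of 35.3% of the WT mean, and ranged between 0.448% and 51.7%. Of these genes, 9 were under 25% of WT, 15 lay between 25 and 50%, and CIPK25 alone was above. On the log2(FPKM + 1) scale, the median difference between hdt1 and WT was -1.33, with single genes between -3.11 and -0.90, while the median over all 17906 genes tested was -0.08. All 25 passed the filter for testing (at least 1 FPKM in at least 3 libraries), which their WT values alone guaranteed. Over all genes tested, 10.9% had every hdt1 library below every WT library and 8.5% had every hdt1 library above, and the members belong to the genes below by the way they were chosen. The reverse selection, with the genotypes exchanged, gave 161 genes. The members' mean WT levels ran between 3.57 and 134 FPKM, and the reads behind them summed to at least 284 over the WT libraries. A total of 5 members had fewer than 100 reads over the hdt1 libraries.

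**Figure D1:**
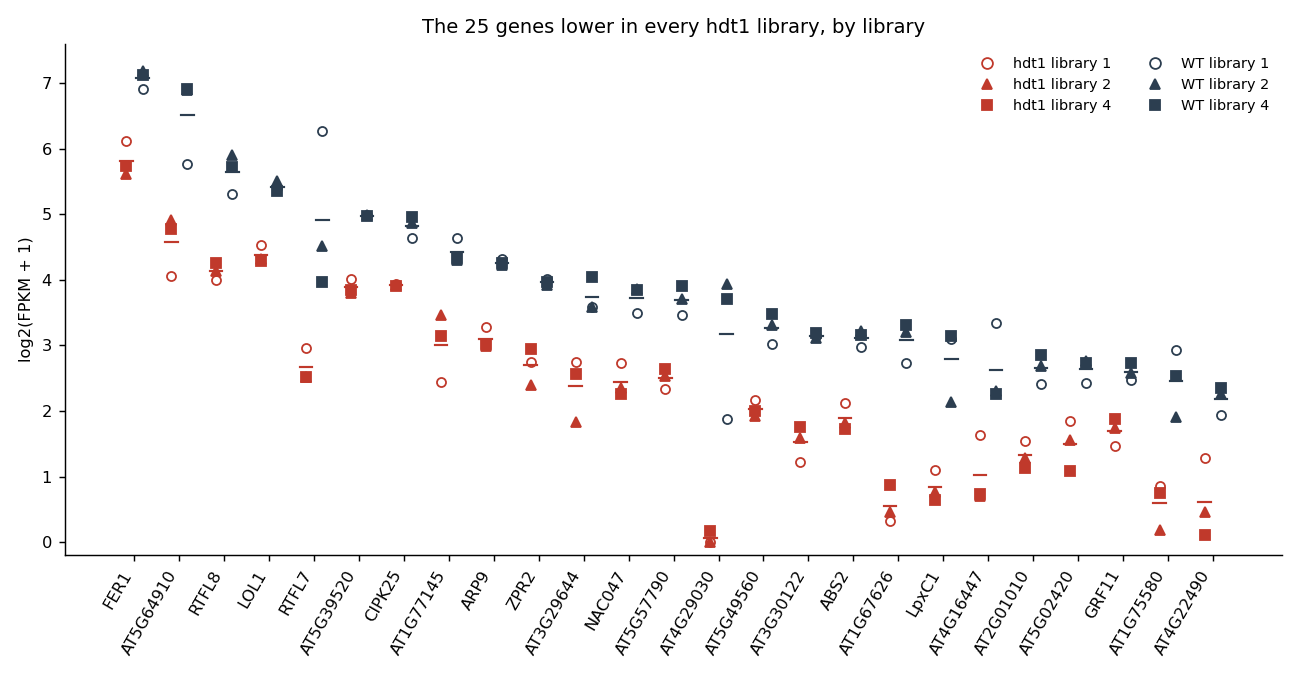
Expression of the 25 members in each library as log2(FPKM + 1), with genes ordered by their mean WT level, hdt1 libraries to the left of the WT libraries of each gene, and short lines at the mean of 3 libraries. Every hdt1 point lies below every WT point of its gene, as the choice of genes requires, and the means lie farthest apart for AT4G29030, whose log2 difference was -3.11.

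The members RTFL7 and RTFL8 belong to the DVL (ROTUNDIFOLIA-like) family of small plant peptides, which alter the shape of organs when overexpressed. RTFL8 was at 14.9, 16.6 and 18.2 FPKM in hdt1 libraries 1, 2 and 4, against 38.6, 59.2 and 51.98 FPKM in the WT libraries. RTFL7 was at 6.82, 4.70 and 4.71 FPKM in hdt1, against 76.4, 22.0 and 14.6 FPKM in WT. The hdt1 values of both genes lay close together, and the WT values of RTFL7 were spread widely, with library 1 far above libraries 2 and 4. The hdt1 means were 33.2% of WT for RTFL8 and 14.4% for RTFL7.

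Of the 24 DVL genes in the table, 11 were tested, and the 9 that were not members had a median log2 difference of 0.20. Of these 9, 7 were positive, among them RTFL13, which turned negative under quantile normalization. RTFL16 was at 18.6, 236 and 257 FPKM in hdt1 libraries 1, 2 and 4, against 12.3, 69.2 and 63.8 FPKM in WT (log2 difference 1.44, SE 1.16, adjusted p = 0.595 by limma, and 0.0486 with a term for library 1). RTFL21 was at 8.67, 7.62 and 8.03 FPKM in hdt1, against 4.30, 6.72 and 5.36 FPKM in WT (log2 difference 0.51, SE 0.19, adjusted p = 0.333). The next lower relative after the members was RTFL5, with a log2 difference of -0.72 (SE 0.35, adjusted p = 0.414) from values of at most 2.30 FPKM.

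The 250 bases before the annotated starts of the DVL members are shown. With the genes left out not counted, these are the only family of related genes with more than 1 member. The bases shown are upstream of RTFL7 and RTFL8. They come from the RefSeq TAIR10.1 genome, read 5′ to 3′ on the gene's strand, with TATAAA on either strand and the DRE core CCGAC on either strand in capitals.
RTFL7, chr3:20590013-20590262, plus strand: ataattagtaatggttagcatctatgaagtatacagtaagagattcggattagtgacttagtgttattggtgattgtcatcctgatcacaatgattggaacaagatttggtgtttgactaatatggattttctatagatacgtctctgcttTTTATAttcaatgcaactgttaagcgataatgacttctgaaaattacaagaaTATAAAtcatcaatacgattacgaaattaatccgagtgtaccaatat
RTFL8, chr2:16556551-16556800, plus strand: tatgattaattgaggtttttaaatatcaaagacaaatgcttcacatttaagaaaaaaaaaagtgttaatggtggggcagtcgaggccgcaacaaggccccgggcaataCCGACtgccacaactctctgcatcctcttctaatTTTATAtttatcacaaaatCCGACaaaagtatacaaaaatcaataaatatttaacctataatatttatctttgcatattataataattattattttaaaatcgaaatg
TATAAA began 99 and 47 bases before the start of RTFL7 and 108 bases before that of RTFL8. Only RTFL8 held CCGAC, at 142 and 89 bases before the start. Windows from 250 bases before to 50 bases after the start were searched. TATAAA was found for 48.0% of the members and 48.8% of all annotated genes, and CCGAC for 4% and 15.3%. Among the genes whose lowest WT value was 2 FPKM or more, the shares were 50.6% for TATAAA and 17.0% for CCGAC.

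Regulators of transcription and growth made up a further group. ZPR2 encodes a LITTLE ZIPPER protein, a short leucine zipper that binds class III HD-ZIP factors and keeps them from DNA. It was at 5.70, 4.26 and 6.74 FPKM in hdt1 libraries 1, 2 and 4, against 15.1, 14.2 and 14.7 FPKM in WT, and its difference was alike within library 1 (-1.27) and within libraries 2 and 4 (-1.28). All of the other LITTLE ZIPPER genes had negative differences, none of which passed with genotype as the only term: -0.93 for ZPR1 (SE 0.56, adjusted p = 0.485), -0.80 for ZPR3 (SE 0.40, adjusted p = 0.424) and -0.18 for ZPR4 (SE 0.19, adjusted p = 0.689). ZPR1, the most abundant of them, was at 90.2, 28.7 and 33.7 FPKM in hdt1, against 159, 71.1 and 55.8 FPKM in WT, and it passed with a term for library 1 (adjusted p = 0.0338 by limma). Among the class III HD-ZIP genes, which act in vascular patterning, ATHB8 was at 11.1, 8.99 and 8.73 FPKM in hdt1, against 6.08, 5.53 and 6.08 FPKM in WT (log2 difference 0.62, SE 0.16, adjusted p = 0.287 by limma, and 0.0437 with a term for library 1). The median of the 5 class III HD-ZIP genes was -0.18.

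ABS2 (also NGAL1), a B3-domain factor of the NGATHA-like group that affects leaf and petal shape, was at 3.36, 2.52 and 2.30 FPKM in hdt1 libraries 1, 2 and 4, against 6.88, 8.30 and 7.98 FPKM in WT. NGAL2, the only relative tested, was at 8.21, 4.14 and 4.03 FPKM in hdt1, against 5.42, 7.20 and 6.50 FPKM in WT, so that its libraries overlapped. NAC047, a NAC factor that promotes upward leaf bending under waterlogging, was at 5.64, 4.13 and 3.77 FPKM in hdt1, against 10.2, 13.5 and 13.3 FPKM in WT. Library 1 was the highest of the hdt1 libraries and the lowest of the WT libraries for ABS2 and NAC047. LOL1, a zinc finger protein of the LSD1 family that promotes cell death, was at 22.2, 18.9 and 18.6 FPKM in hdt1, against 41.2, 44.4 and 39.9 FPKM in WT. LSD1, which restrains cell death, was at 33.7, 105 and 103 FPKM in hdt1 and 32.2, 95.6 and 91.5 FPKM in WT, a log2 difference of 0.12 (SE 0.60).

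AT1G75580 (SAUR51) is a SAUR gene, a family of short auxin-induced transcripts linked to cell expansion. It was at 0.801, 0.131 and 0.689 FPKM in hdt1 libraries 1, 2 and 4, against 6.62, 2.76 and 4.78 FPKM in WT. The 27 other SAUR genes tested had a median log2 difference of 0.37, with 1 lower and 5 higher at an unadjusted p under 0.05 and none after adjustment. With a term for library 1, AT4G38860 was lower and AT2G46690, AT4G34760, AT3G12955 and AT4G12410 were higher after adjustment. AT4G38860, the SAUR gene that was lower, missed the choice of members because its WT values of 1.66, 1.77 and 2.33 FPKM began below 2 FPKM.

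AT5G02420 is annotated as an SMR3-like inhibitor of cyclin-dependent kinases, the SIAMESE-related proteins that hold back the cell cycle. It was at 2.60, 1.95 and 1.13 FPKM in hdt1 libraries 1, 2 and 4, against 4.37, 5.77 and 5.63 FPKM in WT. Its relatives differed among themselves, with log2 differences of -0.99 for AT3G27630 (SE 0.41, adjusted p = 0.365), -0.70 for AT1G51355 (SE 0.19, adjusted p = 0.287) and 0.79 for AT5G40460 (SE 0.41, adjusted p = 0.433).

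FER1 was the most abundant member. Ferritins store iron in plastids, and FER1 transcripts accumulate when iron is plentiful. FER1 was at 68.3, 47.8 and 52.2 FPKM in hdt1 libraries 1, 2 and 4, against 119, 145 and 139 FPKM in WT, or 41.8% of WT, from 10432 reads in hdt1 and 24137 reads in WT. An antisense lncRNA (AT5G01595) overlaps FER1 over 1334 bases and was itself at most 1.13 FPKM in any library. FER4 was at 22.2, 9.70 and 9.85 FPKM in hdt1, against 35.2, 24.7 and 24.2 FPKM in WT (log2 difference -1.04, SE 0.35, adjusted p = 0.315 by limma, and 0.0338 with a term for library 1). FER3 was at 20.1, 22.8 and 22.3 FPKM in hdt1, against 27.7, 33.3 and 26.4 FPKM in WT (log2 difference -0.40, SE 0.16, adjusted p = 0.351), and FER2 had a log2 difference of -0.12 (SE 0.47). For FER3 and FER4 every hdt1 library was below every WT library, as for 10.9% of all genes, and FER2 overlapped between the genotypes.

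GRF11, a 14-3-3 protein of root iron-deficiency signalling, was a member at 1.78, 2.34 and 2.67 FPKM in hdt1 libraries 1, 2 and 4, against 4.53, 4.98 and 5.65 FPKM in WT. The 10 other 14-3-3 genes tested had a median log2 difference of 0.14, and none of them was lower at an unadjusted p under 0.05. Of 11 further iron genes, 7 were tested, 4 with negative and 3 with positive differences and a median of -0.16, and the transporter YSL1, which moves iron bound to nicotianamine, was the only one under an unadjusted p of 0.05 (log2 difference -0.71, SE 0.26, adjusted p = 0.329 by limma, and 0.0338 with a term for library 1). The factor PYE and the ubiquitin ligase BTS, regulators of the response to iron deficiency, had log2 differences of -0.41 (SE 0.29) and 0.05 (SE 0.18). FRO2, the ferric reductase of iron uptake, was among the genes just under the required WT level, at 0.670, 0.937 and 0.919 FPKM in hdt1 and 1.84, 2.55 and 3.17 FPKM in WT.

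**Figure D2:**
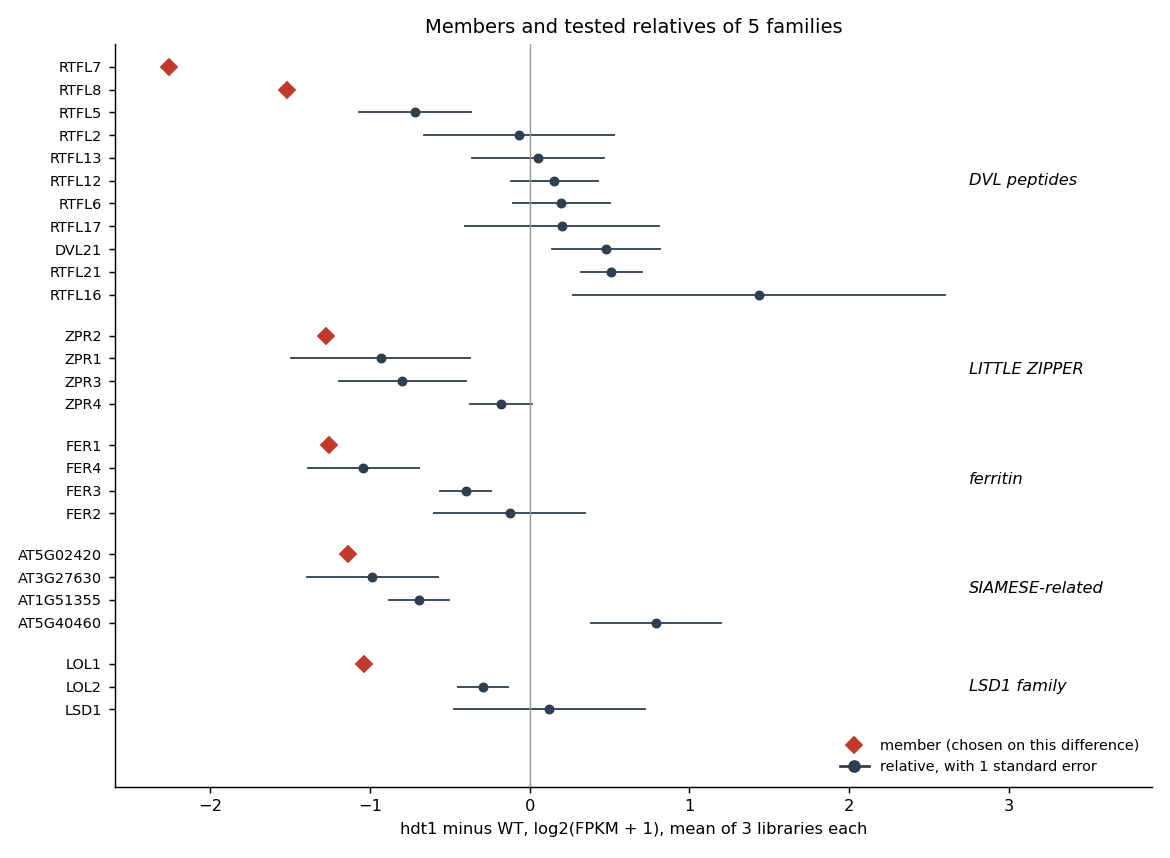
Difference between hdt1 and WT in log2(FPKM + 1) for the members (diamonds) and tested relatives (circles, with bars of 1 standard error from limma) of 5 families. The ferritins and LITTLE ZIPPER genes all lie below 0, whereas 7 of the 9 DVL relatives lie above 0, as given in the text.

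Kinases and an actin-related protein were also among the members. CIPK25, a kinase activated by calcium-sensing CBL proteins, was at 14.4, 14.12 and 14.004 FPKM in hdt1 libraries 1, 2 and 4, against 24.1, 28.1 and 30.04 FPKM in WT. The 22 other CIPK genes tested had a median log2 difference of -0.06. AT5G64910, annotated as a Ser/Thr kinase, was at 15.6, 29.1 and 26.5 FPKM in hdt1, against 53.3, 118 and 119 FPKM in WT, or 24.5% of WT. Its library 1 was low in both genotypes. It shares 227 bases on the opposite strand with CIP8, a RING-type partner of COP1 that was at 24.9, 42.3 and 42.5 FPKM in hdt1 and 24.5, 38.6 and 40.1 FPKM in WT. No source says whether the counting used strand, so reads of overlapping genes on opposite strands cannot be told apart. ARP9, an actin-related protein, was at 8.75, 6.95 and 7.14 FPKM in hdt1, against 18.9, 17.6 and 18.1 FPKM in WT. Among the 6 other actin-related genes tested, 5 had negative differences with a median of -0.25, and ARP4 alone was under an unadjusted p of 0.05 (log2 difference -0.41, SE 0.17, adjusted p = 0.356).

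Genes with little or no assigned role included the member that differed most. AT4G29030, a putative membrane lipoprotein, had 0, 0 and 4 reads in hdt1 libraries 1, 2 and 4 (0, 0 and 0.130 FPKM), against 82, 449 and 354 reads in the WT libraries (2.66, 14.3 and 12.1 FPKM). Its hdt1 mean was 0.448% of the WT mean, a value that rests on those 4 reads. AT4G22490, of the lipid-transfer protein family, was at 1.44, 0.373 and 0.0747 FPKM in hdt1, against 2.83, 3.76 and 4.11 FPKM in WT, so that it was at 50.7% of WT in library 1 and at 5.68% in libraries 2 and 4. AT4G16447 was at 2.09, 0.624 and 0.664 FPKM in hdt1, against 9.13, 3.94 and 3.77 FPKM in WT. Both genotypes had the highest value of AT4G16447 in library 1.

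AT5G39520, with a DUF1997 domain, had the WT libraries closest together of all members, at 15.2, 13.0 and 13.5 FPKM in hdt1 and 30.6, 30.7 and 30.3 FPKM in WT. It overlaps SGR4 by 106 bases on the opposite strand. AT5G49560, a putative methyltransferase, was at 3.48, 2.79 and 3.00 FPKM in hdt1, against 7.15, 8.92 and 10.1 FPKM in WT. AT5G57790, an uncharacterized protein, was at 4.07, 4.81 and 5.21 FPKM in hdt1, against 10.1, 12.05 and 14.04 FPKM in WT. AT1G77145, with a DUF506 domain, was at 4.44, 9.99 and 7.80 FPKM in hdt1, against 23.8, 18.7 and 19.3 FPKM in WT, and is 91.0% identical to AT1G77160 over 80.8% of its exons.

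The upstream bases of 4 of the genes above are shown, for AT5G39520 and AT5G49560 as the only members with a G-box (CACGTG, bound by bZIP and bHLH factors), for FER1 as the most abundant member and for AT4G29030 as the one that differed most. Capitals mark the G-box CACGTG together with the ABRE core ACGTGG, which overlaps it, the TATA motif TATAAA and the W-box TTGACC, each on either strand.
AT5G39520, chr5:15825567-15825816, minus strand: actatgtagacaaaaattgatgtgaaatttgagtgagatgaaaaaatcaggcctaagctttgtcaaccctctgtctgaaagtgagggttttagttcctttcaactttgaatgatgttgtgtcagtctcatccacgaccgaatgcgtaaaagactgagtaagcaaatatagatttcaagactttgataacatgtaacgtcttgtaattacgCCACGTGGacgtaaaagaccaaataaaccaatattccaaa
AT5G49560, chr5:20111807-20112056, minus strand: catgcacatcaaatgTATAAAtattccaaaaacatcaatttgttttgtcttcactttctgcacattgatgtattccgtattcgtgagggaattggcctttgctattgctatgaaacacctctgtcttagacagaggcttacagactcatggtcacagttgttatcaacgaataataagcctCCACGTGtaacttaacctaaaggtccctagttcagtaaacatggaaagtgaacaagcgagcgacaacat
FER1, chr5:230052-230301, minus strand: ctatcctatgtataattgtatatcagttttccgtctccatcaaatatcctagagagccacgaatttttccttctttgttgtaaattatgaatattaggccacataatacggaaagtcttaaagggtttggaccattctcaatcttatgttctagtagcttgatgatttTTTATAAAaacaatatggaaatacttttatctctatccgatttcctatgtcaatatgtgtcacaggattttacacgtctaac
AT4G29030, chr4:14306945-14307194, plus strand: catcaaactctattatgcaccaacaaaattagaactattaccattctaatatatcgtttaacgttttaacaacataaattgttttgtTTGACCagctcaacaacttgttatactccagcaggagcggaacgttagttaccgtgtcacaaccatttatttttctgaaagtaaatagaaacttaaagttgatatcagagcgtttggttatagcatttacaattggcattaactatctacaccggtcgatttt
The G-box began 39 bases before the start of AT5G39520 and 68 bases before that of AT5G49560. CACGTG was in the windows of 8.00% of the members and 6.46% of all annotated genes, and TTGACC in 8.00% and 13.5%. Among the genes whose lowest WT value was 2 FPKM or more, the shares were 9.07% for CACGTG and 14.4% for TTGACC. The site II element TGGGCC, common before ribosomal protein genes, was in no window of a member. It was in 4.97% of the genes selected as higher in every hdt1 library and in 13.0% of all annotated genes. Among the genes whose lowest WT value was 2 FPKM or more, its share was 21.1%.

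The 4 members that were not annotated as protein coding follow. AT1G67626, a pseudogene, was at 0.246, 0.373 and 0.822 FPKM in hdt1 libraries 1, 2 and 4, against 5.64, 8.24 and 8.93 FPKM in WT. The transcribed pseudogene AT3G30122 was at 1.34, 2.01 and 2.37 FPKM in hdt1, against 7.81, 7.68 and 8.13 FPKM in WT. The lncRNA AT3G29644 was at 5.70, 2.57 and 4.94 FPKM in hdt1, against 11.04, 10.98 and 15.5 FPKM in WT. For all 3, the WT values were closer to each other than to any hdt1 value. The 18S ribosomal RNA gene AT2G01010 was at 1.92, 1.44 and 1.198 FPKM in hdt1, against 4.33, 5.42 and 6.24 FPKM in WT.

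Values of members with near-identical copies are uncertain, since how reads matching several places were assigned is not given. AT2G01010 is 99.9% identical to AT3G41768 over its whole length, and AT3G41768 was at 63.6, 6.42 and 5.38 FPKM in hdt1 libraries 1, 2 and 4, against 43.0, 276 and 300 FPKM in WT. The copy was thus higher in hdt1 in library 1 and lower in libraries 2 and 4, unlike the member. AT1G67626 matches AT4G20725 at 99.1% and AT1G58020 at 98.9% over 74.1% of its length. LpxC1 (AT1G24793), a deacetylase of lipid A synthesis, was at 1.13, 0.69996 and 0.565 FPKM in hdt1, against 7.57, 3.38 and 7.82 FPKM in WT. Its exons match LpxC3, LpxC4 and LpxC5 at 99.3 to 100%, and LpxC3 was at 3.62, 9.05 and 9.9997 FPKM in hdt1 and 4.01, 5.71 and 8.53 FPKM in WT. LpxC1 also shares 61 bases on the same strand with AT1G24800, which was at 2.94, 2.61 and 1.78 FPKM in hdt1 and 2.78, 2.26 and 2.06 FPKM in WT.

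The selection depends strongly on library 1. With libraries 2 and 4 alone the same thresholds gave 1508 genes, and with library 1 alone 455. Each of these includes all 25 members, as the choice of members requires. Leaving out hdt1 library 1 gave 653 genes and leaving out WT library 1 gave 605, whereas leaving out any other library gave 28 to 30. The median difference of the members was -1.03 within library 1 and -1.49 within libraries 2 and 4. In 18 members it was larger in size in libraries 2 and 4, with AT4G29030 (-1.87 in library 1 and -3.73 in libraries 2 and 4) and AT4G22490 (-0.65 and -2.02) farthest apart, and in 7 it was larger in library 1, with RTFL7 (-3.31 and -1.73) and AT1G77145 (-2.19 and -1.02) farthest apart. The 2 sets of values differed by less than 0.5 in 14 members. What sets library 1 apart is not given in the labels and was not tested. Some clock genes differed widely in library 1 of both genotypes. LHY was at 1.38, 30.3 and 30.7 FPKM in hdt1 libraries 1, 2 and 4, and at 1.30, 48.0 and 48.3 FPKM in WT. ELF4 was at 164, 3.87 and 3.61 FPKM in hdt1 and at 160, 21.4 and 18.5 FPKM in WT. TOC1 differed less, at 81.8, 34.8 and 34.0 FPKM in hdt1 and 57.6, 44.3 and 45.2 FPKM in WT.

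**Figure D3:**
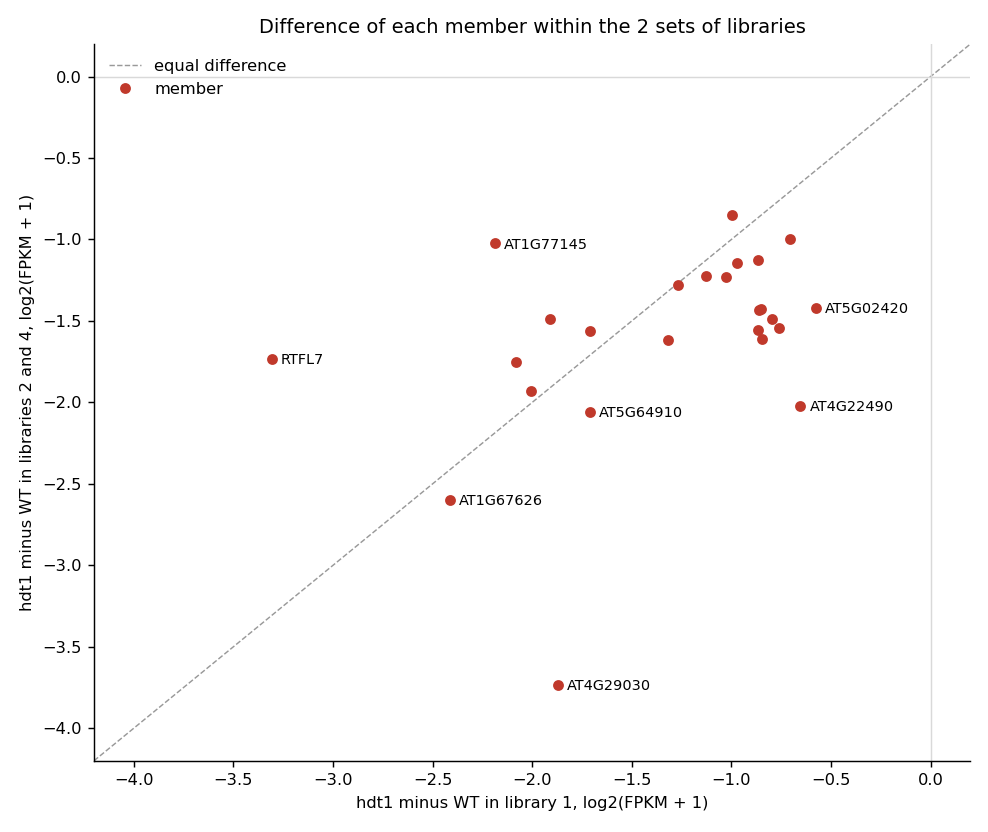
Difference between hdt1 and WT in log2(FPKM + 1) for each member within library 1 (horizontal axis) and within libraries 2 and 4 (vertical axis), with a dashed line where they are equal. All 25 points lie below 0 on both axes, as the choice of genes requires, and 18 lie below the dashed line.

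The limits of the choice fell between genes of similar behaviour. The 3 members closest to the ratio of 0.6 were CIPK25 at 0.597, AT5G02420 at 0.595 and GRF11 at 0.589. Just outside were AT1G28990, a tRNA gene, at 0.604, ZFHD1, a zinc finger homeodomain factor, at 0.610 and the uncharacterized AT3G28899 at 0.618. ZFHD1 was at 22.3, 9.74 and 10.1 FPKM in hdt1 libraries 1, 2 and 4, against 47.6, 36.5 and 41.9 FPKM in WT. Under median-ratio scaling, AT5G64910, GRF11, AT5G02420 and CIPK25 no longer met the thresholds, and under quantile normalization FER1, GRF11 and CIPK25 did not.

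Single-exon genes and short coding parts, which the choice did not use, were more frequent among the members than in the sets they were compared with. In the RefSeq TAIR10.1 annotation, 11 of the 25 (44.0%) had a single exon, compared with 23.0% of the 161 genes selected as higher in every hdt1 library and 12.2% of the annotated genes whose lowest WT value was 2 FPKM or more. Of the 21 protein-coding members, 8 (38.1%) had a coding part under 450 bases, compared with 15.7% and 9.65% in those sets, although this limit was chosen after the lengths were seen. The shortest were RTFL7 with 240 coding bases, RTFL8 with 264, ZPR2 with 321 and AT1G75580 with 327. The single-exon members include the pseudogene AT1G67626 and the 18S ribosomal RNA gene AT2G01010. Of the members 84% were protein coding, against 98.0% of the annotated genes at 2 FPKM or more. With a WT level of at least 5 FPKM the members' single-exon share was 29.4%, and with a ratio limit of 0.5 it was 58.3%. The share among all genes at 5 FPKM or more was not computed. The median number of exons was 3 for the members and 3 for the genes selected as higher. It was 5 for all genes whose lowest WT value was 2 FPKM or more. Some members had many exons, such as ARP9 with 18 and AT5G64910 with 15. Genes are not independent replicates, so no test was made.

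**Figure D4:**
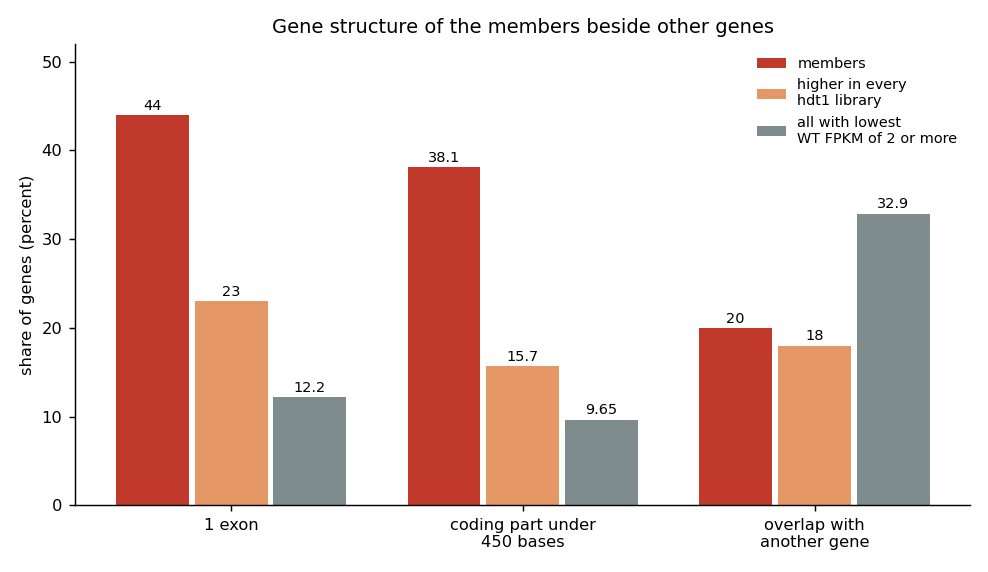
Share of genes in percent with a single exon, with a coding part under 450 bases and overlapping another annotated gene, for the members, the genes selected as higher in every hdt1 library and all genes whose lowest WT value was 2 FPKM or more. Single-exon genes made up 44.0% of the members, the highest of the 3 sets, while 20.0% of the members overlapped another gene, against 32.9% of the last set.

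The members were spread over the genome, with 6, 3, 5, 3 and 8 on chromosomes 1 to 5. The closest pair of starts, those of AT3G29644 and AT3G30122, lay 259599 bases apart. No member started within 4292607 bases of HDT1, the distance of RTFL7. The genes left out do not count in these numbers and distances. Among them, MRD1 and HEI10 overlap each other on chromosome 1 and both met the thresholds. Gene families were set by words in the annotation, and the genes left out were not counted. The DVL peptides held 2 members, and the word inhibitor matched 2 members of unlike families. A further 4 members had no known function, and every other family held at most 1. LTP6, which was left out, met the thresholds and is a lipid transfer protein, a family with 1 member. In 14 groups of genes set beside the members, 102 genes that were not members were tested. The groups held relatives of members, and also class III HD-ZIP and further iron genes from outside the members' families. The NAC and lipid-transfer families were not among the groups. Of the 102 genes, 7.84% had every hdt1 library below every WT library and 8.82% every hdt1 library above. At an unadjusted p under 0.05 by limma, 8 of these 102 genes were lower (7.84%) and 7 were higher (6.86%). Among all genes tested, 5.96% were lower and 7.78% higher. None of the 102 passed the adjustment. Of all 17906 genes, 0 did in this fit, by limma on log2(FPKM + 1) or by voom on recovered reads. Before adjustment, 1068 were lower and 1393 higher by limma on log2(FPKM + 1). Leaving out WT library 1 gave 537 lower and 599 higher genes after adjustment, and leaving out hdt1 library 1 gave 772 and 1222. Each of these fits kept only libraries 2 and 4 of that genotype, which correlate at 0.995, and the cause was not tested. A term for library 1 gave 451 and 684, with 11 of the 102 genes in the 14 groups among them. Of these 11, 4 were lower (ZPR1, FER4, YSL1 and AT4G38860) and 7 higher (ATHB8, RTFL16, the CIPK gene SIP4 and 4 SAUR genes). A block by library number gave 0 after adjustment, and 2251 lower and 2225 higher genes before it.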

How the data were processed

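The authors deposited 1 table of FPKM values for 3 hdt1 and 3 WT stem libraries, made with tools that the submitters' notes list as HTSeq 0.6.1, TopHat2 2.0.12 and Bowtie2 2.2.3. The paper calls the unit RPKM. No source used here gives the strand setting or the genome build, and gene names and coordinates were taken from RefSeq TAIR10.1, in which 32835 of 33602 Arabidopsis identifiers were found. The table's library numbers 1, 2 and 4 do not match the labels' replicate numbers, so that each column was tied to a genotype only.

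The deposited FPKM values were used as they are. Whole reads were recovered for all 25374 features above 0 (relative tolerance 1e-11), which also gave the mapped fragments of each library, and the recovered reads made up 99.6% of them. Genes reaching 1 FPKM in 3 or more libraries were tested on the log2(FPKM + 1) scale by limma 3.58.1 under R 4.3.3 (trend, genotype as the only term, Benjamini-Hochberg adjustment over 17906 genes), which served only for genes that were not members and for background shares. A fold change on this scale understates the change of low genes. Shares, promoter windows and figures were made with Python 3.11.15, pandas 2.3.3 and matplotlib 3.10.9, and near-identical copies were sought with BLAST 2.17.0. The scripts were tested on simulated data.

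Deviations from the genotype means correlated between the genotypes at 0.56, 0.53 and 0.46 for library numbers 1, 2 and 4. Between numbers 2 and 4 they correlated at 0.54 and 0.51, although no source says what the numbers mark. The deviations of a genotype sum to 0. With library 1 apart in both genotypes, the values for numbers 2 and 4 are therefore no separate evidence of pairing. The reported fit has no block, and fits with the library number as a block or with a term for library 1 were alternatives.

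The members, gene families, lists and motifs were chosen with earlier results of these data known, and the relatives were listed after the members were known. All members are named, with values of every library. Beyond HDT1, up to 4 relatives of a member were to be named, and any others were picked with their values known. Lists were made for HD2 deacetylases, xylem, phloem, epidermis, seed, pollen and anther, flower, meristem, photosynthesis, cell division, nucleolus, circadian clock and reference genes. At an unadjusted limma p under 0.05 xylem had 7 and phloem 3 genes higher. The HD2 deacetylases, circadian clock and nucleolus had 1 lower each, and the other lists had none. The lower HD2 gene was HDT1 itself. Among all genes tested, 5.96% were lower and 7.78% higher. None of the lists held a member. Alternatives were other thresholds, pseudocounts (0.1 and 0.5), filters, scalings, a replicate block, a term for library 1 and each library left out. Alternatives added after seeing the data were voom fits, structure shares under other thresholds and list medians under other scalings.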

Additional observations from a re-analysis of the deposited data

How the results depend on the processing

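The number of members was 12 with a limit of 0.5 and 62 with a limit of 0.7, and stayed within 1.5 times of 25 with a least WT value of 1 or 5 FPKM (31 and 17) and under median-ratio scaling and quantile normalization (22 and 28, of which 21 and 22 were members). It was 28 to 653 with each library left out in turn, 1508 with libraries 2 and 4 alone and 455 with library 1 alone. The number of genes higher in every hdt1 library was 78 and 303 with these limits, 166 to 1525 with each library left out, 2228 with libraries 2 and 4 alone and 1052 with library 1 alone. The members' median log2 difference was -1.03 with library 1 alone, and otherwise between -1.53 and -1.23.

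By limma, the replicate block by library number gave 2251 lower and 2225 higher genes before adjustment, the batch term 3729 and 2941, and voom with the batch term 3693 and 2950. With each library left out, these numbers were 270 to 3215 and 678 to 2476. After adjustment the batch term gave 451 and 684, voom with the batch term 647 and 1096, and leaving out each library 0 to 772 and 0 to 1222, while the block changed no call after adjustment. The cause of these changes was not tested.

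The sign of the members' log2 differences was fixed by their choice. Of 325 values over 13 alternatives, some of which leave the difference as it is, 36 moved by more than the spread between libraries. The median of photosynthesis genes was -0.20 under quantile normalization, against -0.40 without it. Members with few hdt1 reads are limited by depth, above all AT4G29030 with 4 reads.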

Other observations

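The annotated genes on either side of the members numbered 50, of which 30 were tested. Of these 30, 13 had a negative log2 difference between hdt1 and WT, compared with 58.6% of all genes tested, and their median was 0.03. At an unadjusted limma p under 0.05, 3 of them were lower and 1 was higher, beside 5.96% and 7.78% of all genes tested, and none passed the adjustment over all genes. AT3G55520, next to RTFL7, averaged 44.1 FPKM in hdt1 and 66.4 FPKM in WT (log2 difference -0.56). AT5G01610, next to FER1, averaged 6.12 FPKM in hdt1 and 9.71 FPKM in WT (-0.57), and DHDPS1, next to ZPR2, averaged 10.7 FPKM in hdt1 and 15.1 FPKM in WT (-0.45). AT2G39710, next to RTFL8, averaged 15.6 FPKM in hdt1 and 5.36 FPKM in WT (1.34), and so differed in the opposite direction to its neighbour.

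Among the gene lists, the median log2 difference between hdt1 and WT was 1.87 for xylem and 0.76 for phloem genes. It was -0.33 for epidermis, -0.40 for photosynthesis, -0.25 for nucleolus, -0.20 for circadian clock and -0.06 for cell division. For HD2 deacetylases, with HDT1 itself included, it was -0.21, and for reference genes -0.21. A single gene was tested in each of the meristem (-0.37), pollen and anther (-1.77) and seed (0.53) lists, and none in the flower list. The seed value is that of SESA1 and does not stand for its list. All other seed genes missed the filter and were higher in WT libraries 2 and 4 than in any hdt1 library. SESA4, for example, was at 0 FPKM in every hdt1 library, against 0, 90.1 and 85.4 FPKM in WT libraries 1, 2 and 4.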
